A study of Homo sapiens with 16 samples.

Results

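The downstream-of-gene transcripts (DoGs) of NEK6, SERINC1 and TET1 were examined in HEK293 cells, which descend from human embryonic kidney. These 3 of the 3139 DoGs with a deposited FPKM value had been chosen for a lower FPKM in SERIPH 2nd-step RNA than in hiAGPC, both from stressed cells, and that difference is therefore given as a description without a test. FPKM counts sequenced fragments, scaled to the length of the DoG region and to the size of the library. Control cells received fresh medium without additions, and cells under DoG-inducing conditions received 200 mM sorbitol together with 100 µg/mL cycloheximide for 9 h, so that osmotic stress and the block of translation cannot be told apart. RNA of each condition was prepared in 4 ways, each with 2 biological replicates, which gave 16 rRNA-depleted, strand-specific libraries of bulk RNA in 8 groups. All cells were labelled wild type, and the identity of the line was not analysed here, because the deposited values cover only DoGs.

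A DoG arises when RNA polymerase II does not terminate at the end of a gene and transcribes the sequence behind it, and osmotic stress is a known inducer of such readthrough. In acid guanidinium-phenol-chloroform (AGPC) extraction, most RNA enters the aqueous phase. Semi-extractable RNA, often retained in protein-rich nuclear assemblies, stays in the interphase unless the lysate is heated or sheared. Conventional RNA and SERIPH 1st-step RNA are aqueous RNA from unheated lysate. hiAGPC RNA comes from a heated whole lysate, and SERIPH 2nd-step RNA comes from the washed and heated interphase. In bulk RNA, fewer cells that make a DoG and less DoG RNA per cell cannot be told apart, and FPKM is relative to the other RNA of the same preparation. NEK6 encodes a protein kinase that acts in mitotic spindle assembly. SERINC1 encodes a membrane protein of the serine incorporator family. TET1 encodes a dioxygenase that oxidises 5-methylcytosine in DNA.

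The regions began 0 (NEK6), 3 (SERINC1) and 99 (TET1) bases behind the gene ends of GENCODE v44. They had the same length in every library that listed them, 10000 bp, the shortest length the calling allowed. The NEK6 region (gene identifier ENSG00000119408.18) was at chr9:124353308-124363307 on the plus strand of GRCh38. The SERINC1 region (ENSG00000111897.8) was at chr6:122433348-122443347 on the minus strand, and the TET1 region (ENSG00000138336.10) at chr10:68694587-68704586 on the plus strand. Of all 3139 DoGs, 673 (21.4%) had an FPKM region of this shortest length, and the median length was 30000 bp. The first 150 bases of each region, read from GRCh38 in the direction of transcription, show where the listed readthrough regions begin. Capitals mark a match to the polyadenylation signal letters AATAAA or ATTAAA or to their reverse complements TTTATT or TTTAAT.

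NEK6: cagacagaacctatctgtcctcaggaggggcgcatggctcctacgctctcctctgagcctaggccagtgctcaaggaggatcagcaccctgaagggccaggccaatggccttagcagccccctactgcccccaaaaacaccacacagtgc
SERINC1: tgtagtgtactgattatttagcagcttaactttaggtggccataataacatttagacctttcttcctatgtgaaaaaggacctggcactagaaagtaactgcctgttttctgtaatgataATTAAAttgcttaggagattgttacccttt
TET1: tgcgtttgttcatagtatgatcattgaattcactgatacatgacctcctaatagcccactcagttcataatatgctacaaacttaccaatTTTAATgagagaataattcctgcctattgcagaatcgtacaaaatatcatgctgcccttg

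These starts are at chr9:124353308-124353457 (plus strand), chr6:122443198-122443347 (minus strand) and chr10:68694587-68694736 (plus strand). A and T made up 39.3% of the bases shown for NEK6, 65.3% for SERINC1 and 64.0% for TET1. The SERINC1 start holds 1 signal on the transcribed strand, which 11.6% of DoG starts of this length do, and the TET1 start holds 1 match on the reverse strand, which 23.4% of DoG starts do. Over the whole 10 kb, the transcribed strand held 16 signals for NEK6, 11 for SERINC1 and 18 for TET1, against a median of 11 over the 3134 DoG starts with full sequence and a range of 0 to 46. On the reverse strand the matches numbered 4, 22 and 42, against a median of 12. These matches are letters only and not evidence of use. The 10 kb windows of SERINC1 and TET1 were both 61.6% A and T, and 90.6% and 90.5% of DoG windows had less. The NEK6 window was 51.6% A and T, below the median of 53.9%.

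Each region met another annotated gene in GENCODE v44. The NEK6 region ran for 9843 bp into PSMB7, which encodes a proteasome subunit and lies tail to tail with NEK6 on the opposite strand, and 397 bp of the region matched PSMB7 exons. A TEC entry of GENCODE, a class of loci that await experimental proof, covered bases 4125 to 6559 of the SERINC1 region on the same strand (ENSG00000279453). A long non-coding RNA gene covered bases 3914 to 6208 of the TET1 region on the same strand (ENSG00000260400). Reads from these same-strand entries and readthrough RNA from SERINC1 or TET1 cannot be told apart in the FPKM. In all, 20.7% of DoG windows of 10 kb met a gene on the same strand and 57.3% one on the opposite strand. From the start of the region, the next protein-coding gene on the same strand was 97.1 kb away for NEK6 (ADGRD2), 1110 kb for SERINC1 (TBC1D32) and 26.4 kb for TET1 (CCAR1).

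**Figure D1:**
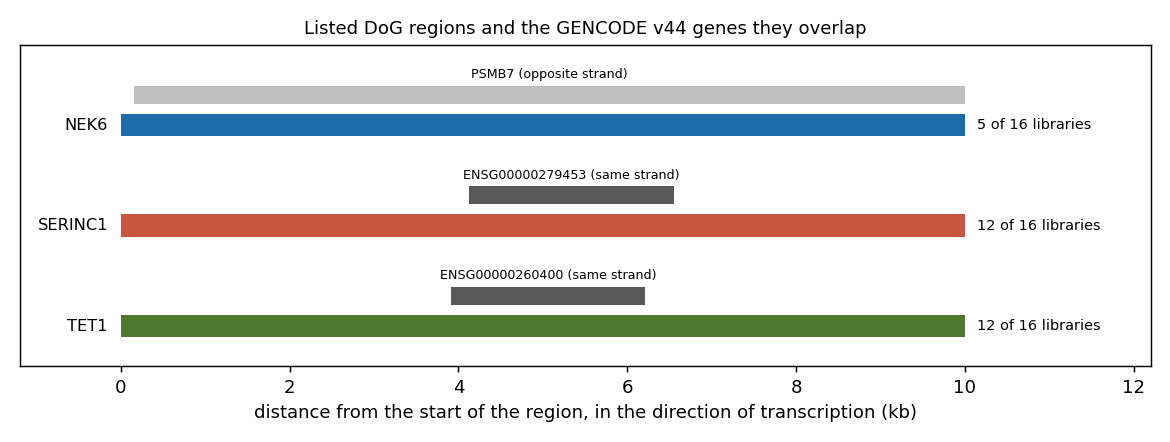
Map of the listed 10 kb regions of the 3 DoGs, with distance in kb from the region's start in the direction of transcription and the number of libraries that listed each. Dark grey bars are annotated genes on the same strand and the light grey bar is one on the opposite strand. PSMB7 covers nearly all of the NEK6 region, and the same-strand entries cover the middle of the other regions.

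The listing of the regions differed between the genes. The SERINC1 and TET1 regions were each listed in 12 libraries, which were all but the 4 of the SERIPH 2nd step, and in both conditions alike. The NEK6 region was listed in 5 libraries, replicate 1 of the conventional control preparation and both replicates of conventional RNA and SERIPH 1st-step RNA under DoG-inducing conditions. By listing, therefore, the SERINC1 and TET1 DoGs were not particular to stressed cells. The listing did not follow FPKM alone. NEK6 was listed at 2.25 but not at 2.81 and 2.82 in the control SERIPH 1st-step libraries, whereas SERINC1 was listed at values down to 1.21. TET1 was not listed at 1.3 or lower and SERINC1 not at 0.39 or lower.

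NEK6 had its highest DoG level in SERIPH 1st-step RNA of stressed cells and its lowest in 2nd-step RNA of the same cells. In control cells, its FPKM in replicates 1 and 2 was 2.25 and 2.07 in conventional RNA, 2.81 and 2.82 in SERIPH 1st-step RNA, 1.47 and 1.3 in hiAGPC, and 0.57 and 0.47 in SERIPH 2nd-step RNA. Under DoG-inducing conditions it was 3.84 and 3.92 in conventional RNA, 5.41 and 5.09 in SERIPH 1st-step RNA, 1.57 and 1.67 in hiAGPC, and 0.18 and 0.06 in SERIPH 2nd-step RNA. No neighbours in the order of the 8 group means overlapped, so the aqueous groups, then hiAGPC and then the SERIPH 2nd step followed each other without contact. The places of stressed hiAGPC and stressed SERIPH 2nd-step RNA rest on values that chose the members, here and for SERINC1 and TET1 below. How many of all DoGs have such an order was not counted. With a mean of 5.25 ± 0.226 (SD, n = 2), the NEK6 DoG ranked 6th of 3139 in SERIPH 1st-step RNA of stressed cells. With 0.12 ± 0.0849 it ranked 2993rd in their 2nd-step RNA.

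SERINC1 was highest in conventional RNA. In control cells, its FPKM was 2.07 and 2.12 in conventional RNA, 1.36 and 1.77 in SERIPH 1st-step RNA, 1.46 and 1.51 in hiAGPC, and 0.34 and 0.39 in SERIPH 2nd-step RNA. Under DoG-inducing conditions it was 2.56 and 2.45 in conventional RNA, 1.91 and 2.06 in SERIPH 1st-step RNA, 1.34 and 1.21 in hiAGPC, and 0.11 and 0.1 in SERIPH 2nd-step RNA. Among neighbours in the order, control SERIPH 1st-step RNA and control hiAGPC were the one pair whose libraries overlapped. The SERINC1 DoG ranked 32nd of 3139 in conventional RNA of stressed cells, at 2.505 ± 0.0778, and 3006th in their SERIPH 2nd-step RNA, at 0.105 ± 0.00707.

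TET1 had the highest control mean of the 3 DoGs in each preparation, although 1 of its control SERIPH 1st-step libraries lay below those of NEK6. Its FPKM in control cells was 3.75 and 3.95 in conventional RNA, 2.25 and 3.68 in SERIPH 1st-step RNA, 2.94 and 2.89 in hiAGPC, and 1.3 and 1.17 in SERIPH 2nd-step RNA. Under DoG-inducing conditions it was 3.82 and 3.63 in conventional RNA, 1.98 and 3.2 in SERIPH 1st-step RNA, 1.74 and 1.94 in hiAGPC, and 0.2 and 0.3 in SERIPH 2nd-step RNA. The 5 groups with the highest means overlapped from one neighbour to the next, and stressed hiAGPC, the control SERIPH 2nd step and the stressed SERIPH 2nd step lay below them without overlap. Replicate 1 was the lower SERIPH 1st-step library in both conditions, and under DoG-inducing conditions that library listed 103 DoGs at 0, against 1 to 13 in the other stressed libraries. In control hiAGPC, TET1 ranked 3rd of 3139 DoGs at 2.915 ± 0.0354, and in SERIPH 2nd-step RNA of stressed cells it ranked 2866th at 0.25 ± 0.0707. In SERIPH 2nd-step RNA of control cells TET1 ranked 120th, NEK6 686th and SERINC1 870th. Their low ranks were thus those of the stressed 2nd-step libraries, which chose the members.

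**Figure D2:**
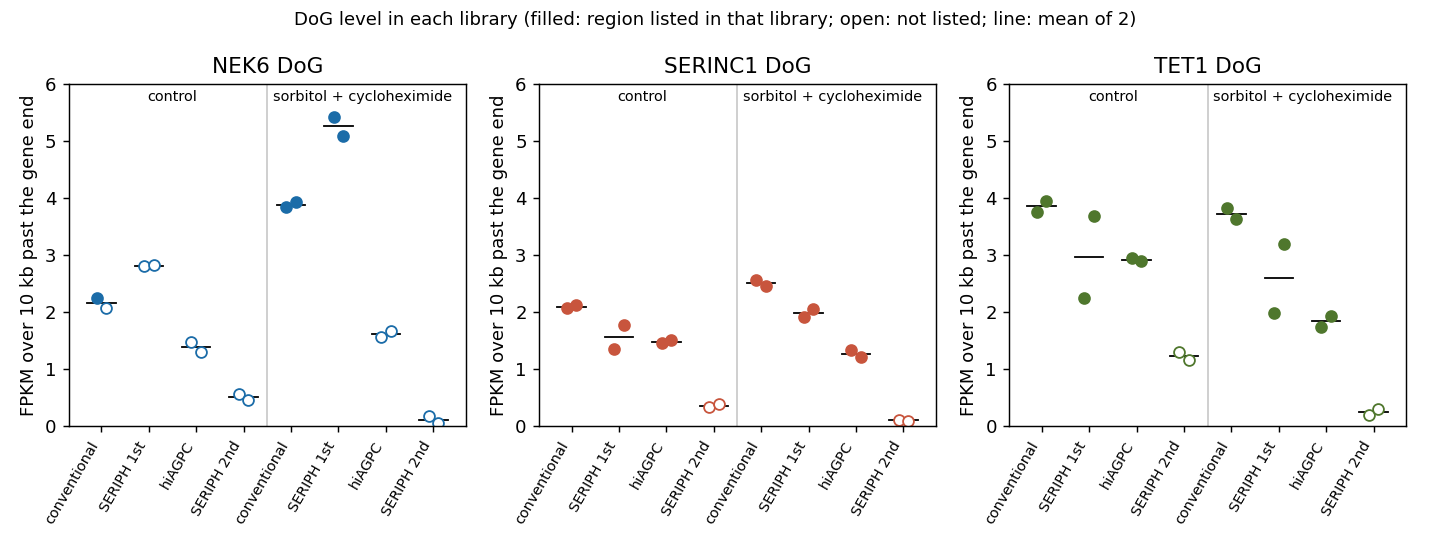
FPKM of the NEK6, SERINC1 and TET1 DoGs in each of the 16 libraries, by preparation and condition. Points are libraries, filled where the region was listed, and lines are means of 2 libraries. In each panel and condition the SERIPH 2nd-step libraries are the lowest and their points are open.

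The values that chose the members are described first. Between SERIPH 2nd-step RNA and hiAGPC of stressed cells, the mean FPKM was 13.5-fold lower for NEK6, 12.1-fold lower for SERINC1 and 7.36-fold lower for TET1. On the scale log2(FPKM + 0.1), which understates changes of low values and is used for all differences below, these were differences of -3.02, -2.74 and -2.48, the 3 lowest of 3139 DoGs. The median DoG had a difference of 0.52. Next after the members came ALG10, a glycosyltransferase gene, at -2.48 and GUF1, which encodes a mitochondrial GTPase, at -2.43. Their FPKM in the SERIPH 2nd-step libraries was 0.05 and 0.1 for ALG10 and 0.04 and 0.16 for GUF1, against 0.97 and 0.77 and against 0.95 and 0.9 in hiAGPC. Values just inside and just outside the choice thus lay close together. Against SERIPH 1st-step RNA of the same stressed cells, the 2nd-step FPKM was 43.8-fold lower for NEK6, 18.9-fold lower for SERINC1 and 10.4-fold lower for TET1, while the median DoG was higher by 1.99 on the log2 scale. hiAGPC stood between, with 2.4-fold less than conventional RNA for NEK6, 1.96-fold less for SERINC1 and 2.02-fold less for TET1, where the median DoG was higher by 1.4.

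The rule used no FPKM of the control libraries, which were tested with limma across all 3139 DoGs. A DoG was called where the log2 difference was 1 or more in size and its p-value, after Benjamini-Hochberg adjustment, was under 0.05. The spread in the fit was estimated from all 16 libraries, including those that chose the members. The comparisons share libraries and are not independent of one another. All 3 DoGs were lower in SERIPH 2nd-step RNA than in hiAGPC of control cells. The log2 difference was -1.26 ± 0.191 (SE) for NEK6, with a limma adjusted p = 0.000509. It was -1.77 ± 0.11 for SERINC1, with a limma adjusted p = 1.35e-06, and -1.18 ± 0.229 for TET1, with a limma adjusted p = 0.00263. Called lower were 3 of 3 members and 1.47% of all DoGs (46), and the median DoG differed by 0.11. Of the 3139 DoGs, 3135 had a region listed in some library. The members were listed in no SERIPH 2nd-step library, whereas the stressed 2nd-step libraries listed more regions (2388 and 2450) than any others. The share over all DoGs is therefore not that of DoGs listed as the members were. SERINC1 and TET1 were listed in both control hiAGPC and both control SERIPH 1st-step libraries, the preparations in which they were higher. The control tests are thus not a fully independent check of the choice. Both 2nd-step libraries lay below both hiAGPC libraries for each gene. The share of all DoGs for which this held was not counted, so nothing particular to the members can be read from it. By the protocol, 2nd-step libraries were made from less RNA than 1st-step libraries, and the part of this in the differences was not tested. A pseudocount of 1 in place of 0.1 brought the 3 differences to between -0.86 and -0.65, so that 0 of 3 were called. The TET1 call was also lost without replicate 1 (limma adjusted p = 0.0585) and without replicate 2 (limma adjusted p = 0.0785).

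The 3 DoGs were also lower in SERIPH 2nd-step RNA than in 1st-step RNA of control cells, the interphase and aqueous RNA of the SERIPH procedure. Both fractions come from the same lysate by the protocol, and the test took them as independent groups. NEK6 fell by 2.24 ± 0.191 on the log2 scale (limma adjusted p = 1.84e-06), from 2.815 ± 0.00707 to 0.52 ± 0.0707 FPKM (SD, n = 2 libraries). SERINC1 fell by 1.83 ± 0.11 (limma adjusted p = 1.01e-07) and TET1 fell by 1.16 ± 0.229 (limma adjusted p = 0.00125). This made 3 of 3 members, against 3.28% of all DoGs (103) called lower and a median of 0.17. The share over all DoGs again includes many listed only in 2nd-step RNA, where no member was listed. The order differed from that against hiAGPC, with NEK6 8th lowest, SERINC1 18th and TET1 82nd of 3139. With a pseudocount of 1, NEK6 alone was called. The TET1 call did not hold without replicate 2, with a difference of -0.75 and a limma adjusted p = 0.0558, or when the 4 libraries were fitted alone, with a limma adjusted p = 0.088.

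Between hiAGPC and conventional RNA of control cells, none of the 3 DoGs was called. The log2 difference was -0.61 for NEK6 (95% interval -1.03 to -0.19, limma adjusted p = 0.0581), -0.47 for SERINC1 (-0.71 to -0.23, limma adjusted p = 0.0151) and -0.39 for TET1 (-0.89 to 0.11, limma adjusted p = 0.339). Both hiAGPC libraries had less FPKM than both conventional libraries for each gene. The share of all DoGs separated in this way was not counted, so nothing particular to the members can be read from it. SERINC1 passed the adjusted p-value and not the size threshold. In this comparison limma called 0% of all DoGs lower, 162 had an unadjusted p-value under 0.05 with a lower level, and the median DoG differed by 0.06.

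**Figure D3:**
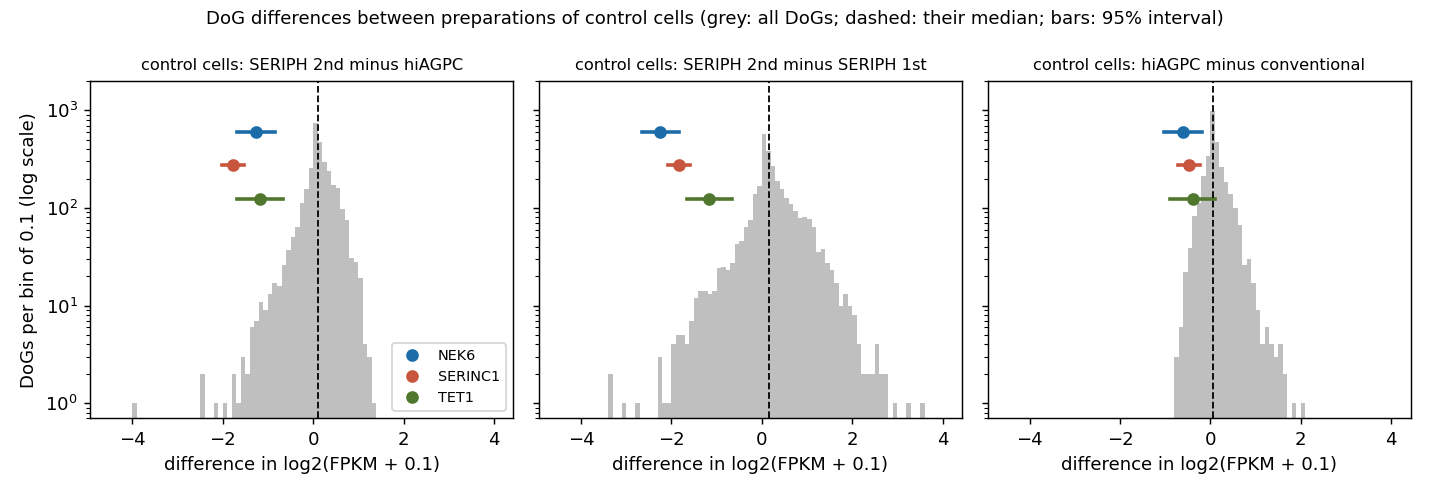
Differences in log2(FPKM + 0.1) between preparations of control cells for NEK6, SERINC1 and TET1 (points, with 95% limma intervals, at arbitrary heights) over a histogram of all 3139 DoGs (grey, counts on a log scale) with their median (dashed). The 3 points lie between -2.24 and -1.16 in the comparisons of the SERIPH 2nd step and between -0.61 and -0.39 in that of hiAGPC with conventional RNA.

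None of the 3 DoGs was called changed by DoG-inducing conditions in aqueous RNA. In conventional RNA, NEK6 differed by 0.82 ± 0.191 on the log2 scale (limma adjusted p = 0.00194), with 1.8-fold more FPKM, which passed the p-value and not the size threshold, and the p-value threshold was missed without replicate 2 (limma adjusted p = 0.0537). SERINC1 differed by 0.25 (95% interval 0.01 to 0.49, limma adjusted p = 0.0557) and TET1 by -0.05 (-0.55 to 0.46, limma adjusted p = 0.859). Thus 0 of 3 members were called in either direction, where 22.2% of all DoGs were called higher and 11% lower and the median DoG differed by 0.44. When each library was centred on its median, 270 DoGs were called higher and 614 lower, in place of 697 and 345. With this centring NEK6 was at 0.26 (limma adjusted p = 0.237), SERINC1 turned to -0.31 (limma adjusted p = 0.0252) and TET1 was at -0.60 (limma adjusted p = 0.0385), and 0 of 3 were called.

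SERIPH 1st-step RNA gave like values. NEK6 differed by 0.88 ± 0.191 (limma adjusted p = 0.0012), from 2.815 to 5.25 FPKM, and SERINC1 by 0.33 ± 0.11 (limma adjusted p = 0.0146). TET1 differed by -0.19 (95% interval -0.69 to 0.32, limma adjusted p = 0.467), and its libraries overlapped between conditions. Of the members 0 of 3 were called, against 21.8% of all DoGs called higher and 10.6% lower, numbers that centring changed from 684 and 333 to 279 and 583. With centring NEK6 was at 0.38 (limma adjusted p = 0.0952), SERINC1 turned to -0.16 (limma adjusted p = 0.201) and TET1 was at -0.68 (limma adjusted p = 0.0215), and 0 of 3 were called. The stress difference of 1st-step RNA minus that of conventional RNA was 0.06 ± 0.27 for NEK6, 0.09 ± 0.155 for SERINC1 and -0.14 ± 0.325 for TET1, with limma adjusted p-values of 0.965, 0.9 and 0.933.

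Both aqueous preparations of stressed cells were also compared directly. NEK6 was 0.43 higher on the log2 scale in SERIPH 1st-step RNA than in conventional RNA (95% interval 0.01 to 0.84, limma adjusted p = 0.16). SERINC1 was at -0.32 (-0.56 to -0.08, limma adjusted p = 0.0815) and TET1 at -0.55 (-1.05 to -0.04, limma adjusted p = 0.139). The TET1 value was -0.18 without replicate 1 of both preparations and -0.91 without replicate 2 of both. Replicate 1 includes the SERIPH 1st-step library with 103 DoGs at 0, whose part was not tested apart from that of conventional replicate 1. The NEK6 value therefore lay on the other side of 0 from the other two, and none passed the adjusted threshold. Limma called 0% of DoGs higher and 0% lower here, with 419 and 514 at an unadjusted p-value under 0.05.

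In the heated preparations the change with DoG-inducing conditions used libraries that chose the members and is given without a test. In hiAGPC it was 0.21 for NEK6, -0.21 for SERINC1 and -0.64 for TET1, where the median DoG differed by 1.86. In SERIPH 2nd-step RNA it was -1.55, -1.18 and -1.94, where the median DoG differed by 2.38. Both stressed libraries lay below both control libraries for each gene. How many of all DoGs did so was not counted, so nothing particular to the members can be read from it. The mean FPKM in 2nd-step RNA was 4.33-fold lower for NEK6, 3.48-fold lower for SERINC1 and 4.94-fold lower for TET1 under DoG-inducing conditions. Relative to the median DoG, the 3 DoGs were at -3.93, -3.56 and -4.32 in this fraction. Counted from the lowest difference, NEK6, SERINC1 and TET1 ranked 241st, 326th and 168th of 3139 there, so many other DoGs had lower differences. In hiAGPC they ranked 636th, 529th and 404th. The median FPKM over all DoGs in these libraries was 0.86 and 0.84, against 0.1 in both control libraries of the fraction, and the part of this shift in the members' values was not tested.

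**Figure D4:**
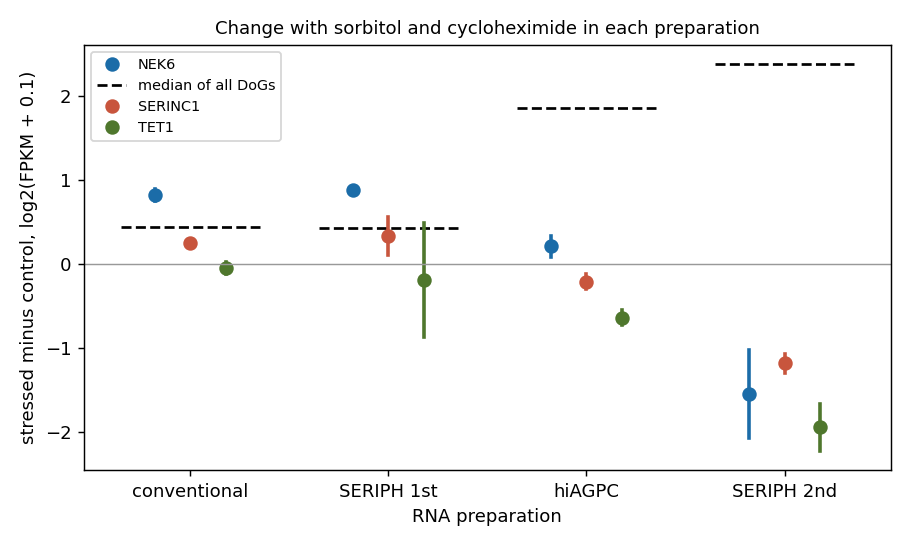
Change with sorbitol and cycloheximide in each preparation, as the difference in log2(FPKM + 0.1) of stressed minus control cells, for the NEK6, SERINC1 and TET1 DoGs. Points are differences of means, vertical lines span the 4 library pairs and dashed lines are medians of all DoGs. The points lie between -0.19 and 0.88 in aqueous RNA and between -1.94 and -1.18 in SERIPH 2nd-step RNA, where the median is 2.38.

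The genes around the regions had DoGs of their own. The PSMB7 DoG runs from the end of PSMB7 back over the NEK6 gene, on the opposite strand, with an FPKM region of 165000 bp. No listed PSMB7 region met the NEK6 region. Its FPKM was 0.03 to 0.05 in the 8 control libraries, 0.16 to 0.22 in aqueous RNA of stressed cells, 0.67 and 0.65 in their hiAGPC RNA and 1.36 and 1.4 in their SERIPH 2nd-step RNA. Among stressed preparations the PSMB7 DoG was thus highest where the NEK6 DoG was lowest. The median DoG of stressed cells was also higher in the 2nd step, by 0.52 against hiAGPC and by 1.97 against conventional RNA on the log2 scale. The direction of PSMB7 was therefore that of the median DoG and not particular to this locus. HSF2, which encodes a heat shock transcription factor, had a listed region at chr6:122433120-122443119 on the opposite strand to SERINC1 in 5 control libraries, over most of the SERINC1 region. The HSF2 DoG had an FPKM of 0.41 to 0.93 in control libraries and 0.12 to 0.47 in stressed ones. Whether the authors' counting used the strand is not given in the sources used here, so reads from opposite strands may not be fully separated for NEK6 and SERINC1. The DoG of CCAR1, a gene for a regulator of cell cycle and apoptosis downstream of TET1, had 0.64 and 0.79 FPKM in SERIPH 2nd-step RNA of stressed cells and 0.09 in both their conventional libraries. This was the reverse of the TET1 order and the direction of the median DoG.

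The 3 DoGs belonged to a group defined by listing. In stressed cells 248 DoGs were listed in both replicates of conventional RNA and of SERIPH 1st-step RNA. Of these, 45 (18.1%) were in no SERIPH 2nd-step list of stressed cells, NEK6, SERINC1 and TET1 among them. Those lists come from libraries in which the members were chosen for low FPKM, so their place in the group is no separate result. Of the 45, 26 were listed in both hiAGPC libraries of stressed cells, as were SERINC1 and TET1, and 15 in neither, as was NEK6. At least 1 control library listed 29 of the 45. For the 27 with FPKM values, which include the 3 members, the median log2 difference of SERIPH 2nd-step RNA in control cells was -0.69 against 1st-step RNA and -0.49 against hiAGPC, with 24 of 27 below 0 each time, where the medians of all DoGs were 0.17 and 0.11. Their median stress difference in conventional RNA was -0.19, with 19 below 0, where the median of all DoGs was 0.44. The shares of all DoGs below 0 were not counted. The 27 were picked by listing in aqueous RNA and absence from stressed 2nd-step lists, so these counts are a description and not a separate result. No control library listed 16 of the 45, and most of these had no FPKM values. The 27 therefore hold few DoGs listed only in stressed cells.

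Across the 16 libraries, the DoGs most like each member in log2(FPKM + 0.1) were found by Pearson correlation among 3138 others, a description whose points share preparations and conditions and include the libraries that chose the members. For NEK6 they were TOP3A (r = 0.962), SERINC1 (r = 0.947) and HSD17B12 (r = 0.943). TOP3A, which encodes a DNA topoisomerase, had a mean of 8.43 FPKM in SERIPH 1st-step RNA of stressed cells and 0.91 in the 2nd. For SERINC1 they were HSD17B12, a fatty acid elongation enzyme gene (r = 0.989), BRCC3, a deubiquitinase gene (r = 0.969), and AIDA (r = 0.963), with stressed 2nd-step means of 0.115, 0.425 and 0.115 FPKM. For TET1 they were ERCC6, a DNA repair gene (r = 0.989), GUF1 (r = 0.983) and ALG10 (r = 0.979). Between the members, r was 0.947 for NEK6 and SERINC1, 0.95 for SERINC1 and TET1, and 0.867 for NEK6 and TET1.

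Of 32 genes related to the members by family or pathway, 8 had a DoG with FPKM values. Among mitotic partners of the NEK family these were KIF11, PLK1 and TPX2, among the serine incorporators and serine lipid synthesis SERINC2, SERINC3 and PTDSS2, and among TET-linked DNA methylation genes DNMT1 and TDG. No other NEK or TET gene had values. In control cells, 0 of the 8 were called lower by limma in SERIPH 2nd-step RNA than in hiAGPC, where 1.47% of all DoGs were, so that a count of 0 shows nothing about these genes, and the DNMT1 DoG differed by -0.65 (limma adjusted p = 0.00107). Against 1st-step RNA 1 of 8 was called lower, where 3.28% of all DoGs were. That DoG was of DNMT1, the maintenance DNA methyltransferase, with 1.525 against 4.105 FPKM, a log2 difference of -1.37 and a limma adjusted p = 1.12e-06. SERINC3, a paralogue of SERINC1, had 0.815 FPKM in SERIPH 2nd-step RNA and 0.645 in hiAGPC of control cells, a log2 difference of 0.3 (limma adjusted p = 0.433). With DoG-inducing conditions in conventional RNA, the DoGs of SERINC3 and TPX2 fell by 1.66 and 1.01 on the log2 scale, with limma adjusted p-values of 6.89e-05 and 0.00115. The DoG of TDG, a thymine DNA glycosylase gene, rose by 1.7 with a limma adjusted p = 2.21e-08. The 2 of 8 called lower and 1 of 8 called higher stand beside 11% and 22.2% of all DoGs. In SERIPH 1st-step RNA the same 3 were called, in the same directions, beside 10.6% lower and 21.8% higher of all DoGs, and counts of this size are near those shares.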

How the data were processed

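The authors trimmed reads with fastp 0.25.0, used Bowtie2 2.5.4 to set aside ribosomal reads and STAR 2.7.11b to place the others on GRCh38, where a read had to map uniquely, and called DoG regions of at least 10 kb in each library with ARTDeco. Their gene set was GENCODE v49, limited to lncRNA and protein-coding entries, without those tagged as readthrough or with names that begin with ENSG or LINC. The FPKM values were deposited by the authors for 1 region per gene, rounded to 0.01. The reads used for scaling are not given in the sources used here, and the authors give a nominal range of read pairs per sample but no depth for each library, so no counting error is given. Region starts, ends and lengths were used as the authors deposited them.

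Groups were the preparations within each condition, 2 libraries each, and 0 per-sample columns were left unassigned. limma 3.58.1 (R 4.3.3) was fitted to log2(FPKM + 0.1) of all 16 libraries with group means and an intensity trend, and p-values were adjusted by the Benjamini-Hochberg method over 3139 DoGs. limma noted DoGs with no variance between replicates and offset them. The model was tested on simulated data with normal noise and with shifts larger than most of the members' differences. That test does not show how smaller differences or rounded values near 0 behave. Tables, sequences and figures were made with Python 3.11.15, numpy 2.4.6, pandas 2.3.3 and matplotlib 3.10.9. Gene positions came from GENCODE v44, and 3131 of the 3139 identifiers, compared without their version, matched a symbol.

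The members and lists were chosen with earlier results of these data known. DoGs named besides the members were the 2 next in rank, the 3 most correlated with each member among DoGs with at least 0.5 FPKM in 1 library, the overlapping and next genes, and the related genes. HSF2 and PSMB7 DoG values and the group of 45 DoGs were added with values in view. The alternatives were a pseudocount of 0.01 or 1, a filter at a mean FPKM of 0.1, centring on library medians, a replicate block, a fit of only the 4 libraries compared, a fit without the intensity trend, each replicate left out, and for listing either replicate or a minimum of 20 kb. Gene expression was not analysed here.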

Additional observations from a re-analysis of the deposited data

Results flagged for a closer look

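The change with DoG-inducing conditions took opposite directions in different preparations for NEK6 and SERINC1, with both libraries of a condition on 1 side of both libraries of the other. The share of all DoGs with such a pattern was not counted, so the pattern cannot be called particular to these genes. For NEK6 the log2 difference of stressed minus control cells was 0.82 in conventional RNA, 0.88 in SERIPH 1st-step RNA and 0.21 in hiAGPC, but -1.55 in SERIPH 2nd-step RNA. For SERINC1 it was 0.25 in conventional RNA and 0.33 in SERIPH 1st-step RNA, but -0.21 in hiAGPC and -1.18 in SERIPH 2nd-step RNA. The differences between preparations were not tested where they involve hiAGPC or SERIPH 2nd-step RNA, because those stressed libraries chose the members. Relative to the median of all DoGs, the SERINC1 differences lay below 0 in each of the 4 preparations, at -0.19, -0.1, -2.06 and -3.56, whereas NEK6 was at 0.38 and 0.44 in aqueous RNA and at -1.64 in hiAGPC and -3.93 in the 2nd step. In the 2nd step NEK6 ranked 241st and SERINC1 326th from the lowest difference of 3139 DoGs, so neither was extreme there. TET1 had overlapping libraries in both aqueous preparations.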

How the results depend on the processing

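Over 162 refits of the members' differences, 150 kept their direction and side of the threshold, 9 lost a call and 3 reversed. A pseudocount of 1 left 0 of 3 DoGs called between SERIPH 2nd-step RNA and hiAGPC of control cells and 1 of 3 (NEK6) between the SERIPH fractions, which follows from the smaller differences this scale gives. The other lost calls were those of TET1 given in the report. Centring on library medians reversed SERINC1 under DoG-inducing conditions to -0.31 in conventional RNA and -0.16 in SERIPH 1st-step RNA, and TET1 in conventional RNA was at 0.026 without replicate 2 and -0.119 without replicate 1. A minimum length of 20 kb left 0 groups that list NEK6, SERINC1 or TET1, and listing in either replicate gave 3 groups for NEK6 in place of 2 and 6 for the others. Counts of DoGs called lower in control cells moved with the pseudocount, from 46 to 106 (0.01) or 4 (1) against hiAGPC and from 103 to 197 or 13 between the SERIPH fractions, and with centring to 69 and 158. Those called higher with DoG-inducing conditions moved from 697 to 1545 or 28 in conventional RNA and from 684 to 1498 or 30 in SERIPH 1st-step RNA, and those called lower from 345 to 479 or 3 and from 333 to 492 or 2. Between hiAGPC and conventional RNA of control cells, a pseudocount of 0.01 called 6 lower in place of 0. Between the aqueous preparations of stressed cells the counts of 0 became 6 higher and 25 lower with a pseudocount of 0.01, 15 and 54 without replicate 2, and 0 and 1 with the replicate block. Replicates that share a number deviated with correlations of -0.07 to 0.127 in the 6 comparisons. The median DoG was at 0.07 to 0.16 FPKM in those libraries, with values rounded to 0.01, so the correlations cannot show whether libraries were paired. The study's methods describe parallel extractions of the same samples without tying them to replicate numbers, and the numbers were not used as pairs. With a replicate block 3, 3, 0, 0, 0 and 0 of the 3 members were called, as without it. By the protocol, SERIPH 1st-step and 2nd-step RNA come from the same lysate. The block is 1 offset shared by control and stressed cells, so it does not test a pairing of preparations within a culture. With 2 libraries per group, no depth given for each library and values rounded to 0.01, levels near 0.1 FPKM are imprecise.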
